A study of Mus musculus with 4 samples.

Results

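The genes described here are the collagens, laminins and integrins on a whole-transcript array of sorted mouse retinal cells. They were chosen by symbol: every gene named Col, a number, a and a number, or named Lama, Lamb or Lamc with a digit, or Itga or Itgb with a further character. Of 18920 genes with a feature (probe set) annotated to 1 symbol, 84 met this rule, comprising 44 collagen genes, 10 laminin genes, 26 integrin chain genes and 4 genes with an integrin-like name that encode no classical chain (Itgb1bp1, Itgb1bp2, Itgb3bp and Itgbl1). Where a gene had more than 1 feature (3 genes), the brightest by average log2 intensity stands for it; the second features of these genes, Itgad, Col6a6 and Col6a5, had adjusted p of 0.933 to 0.971. Retinas of BAC-Crx-EGFP mice were taken at E17.5, a late embryonic stage, and their cells sorted into EGFP-positive cells (replicates 1 and 2) and EGFP-negative cells (replicates 1 and 2), with 1 array for each. All 4 samples, the negative ones included, carry the transgene, in which regulatory DNA of the photoreceptor gene Crx drives a green fluorescent protein, on the 129Sv/Ev background. The labels give neither the number of animals behind a sample nor the sort gate. The p-values rest on how far arrays of a fraction lie apart, for the gene and pooled over all features, and that spread may be technical. The negative fraction holds the retinal cells that were not EGFP-positive and is a mixture.

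Collagens and laminins are secreted chains that assemble into trimers. Type IV collagen and laminin each build a sheet-like network, and together they form basement membranes, which line the inner surface of the retina and its blood vessels. Fibrillar collagens, with type IX collagen on their surface, form the gel of the vitreous. Integrins are receptors of an alpha and a beta chain that bind these proteins and link them to the actin cytoskeleton. In the developing retina, progenitors reach the inner basement membrane with an endfoot and hold on to it through integrins and dystroglycan.

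None of the 84 genes was called between the fractions by limma (0 higher, 0 lower at an adjusted p under 0.05), where 0.820% of all 22431 features were called higher and 0.143% lower, 0.963% in all. At an unadjusted p under 0.05, 13 members had a lower mean in EGFP-positive cells and 1, Itga3, had a higher mean. These are 15.5% and 1.19% of the members, against 9.83% and 9.34% of all features. The count of 13 was 7 without EGFP-positive replicate 2, 7 without EGFP-negative replicate 1, 9 without EGFP-negative replicate 2 and 13 without EGFP-positive replicate 1. The 13 were 6 collagen, 3 laminin and 4 integrin genes, 1.20-fold to 2.69-fold higher in the EGFP-negative cells, with adjusted p from 0.0885 to 0.238. The median log2 difference, EGFP-positive minus EGFP-negative, was -0.06 over the members and -0.01 over all features. A difference below 0 was found for 65.5% of the members and 52.2% of all features. The fractions did not overlap, with both positive arrays on 1 side of both negative arrays, in 47.6% of all features. A lack of overlap in a single gene below is to be read beside that share. Without EGFP-positive replicate 1, the differences of Col9a1, Lamb2, Itgb8, Itgb5, Itga6 and Col4a6 ran from -1.85 to -0.86. That fit leaves 1 EGFP-positive array and called more features over the whole array, these genes among them, so its calls are not read as a result about the members. Without EGFP-positive replicate 2 no member was called. Without either negative array no feature at all was called, so no member could be. With the replicate number added to the model as a block, 12 members were called lower and 0 higher. Over all features that model called 1500 lower and 1377 higher. The labels state no pairing by number, so the model without it is the main one.

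**Figure D1:**
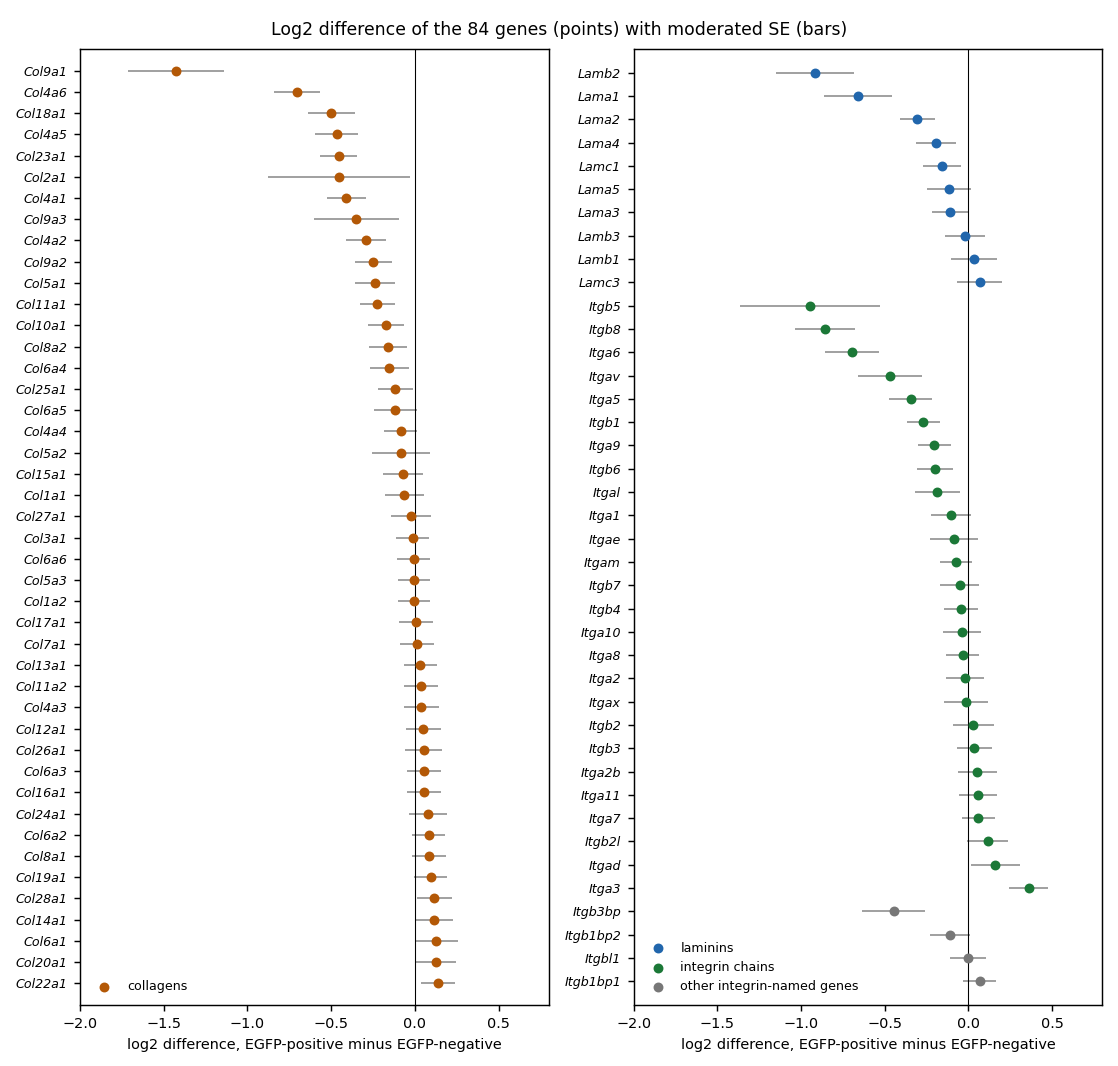
Log2 difference in intensity between EGFP-positive and EGFP-negative cells (x axis) for each of the 84 genes (rows), by family. Points are differences and bars limma's moderated standard errors; the points farthest from 0 are Col9a1 at -1.43, Itgb5 at -0.95 and Lamb2 at -0.92, all to the left.

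Marker genes matched the label of the sort. Of 15 genes of photoreceptor precursors, 12 were called higher in EGFP-positive cells, with summed intensities of 29122.9 and 36792.3 against 4678.1 and 4777.6 in EGFP-negative cells. Of 17 genes of retinal progenitors, limma called 1, Sox2, lower, and 11 had lower means with an unadjusted p under 0.05. The summed progenitor intensity was 32902.7 and 25462.5 in EGFP-positive and 45625.1 and 44628.6 in EGFP-negative cells. The progenitor sum, which the brightest genes weigh most, was lowest on the second positive array. The median log2 change of the list from replicate 1 to 2 was -0.63 in EGFP-positive and -0.12 in EGFP-negative cells. Sfrp2, Six6 and Pax6, named after their values were seen, were higher on the second positive array than on the first. The part of progenitors in the member differences was not tested. In sorted bulk samples fewer cells of a type and less RNA per cell cannot be told apart.

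Sequence upstream of 3 collagen genes is shown because they lead the differences among collagens or form a neighbouring gene pair. Col4a5 and Col4a6 lie head to head on chromosome X, and Col9a1 has 2 annotated starts 17593 bases apart, of which a downstream start giving a shorter chain is known from the eye of the chick. Each line gives the 250 bases before an annotated start from RefSeq, build GRCm38.p6, with capitals marking motif matches. The GC box was searched as GGGCGG, the second motif was the CCAAT box, spelled as in its name, and the third, the TATA box, was searched with the letters TATAAA, each also as its reverse complement, and no matches overlap here.
Col9a1 upstream start, chr1:24177360-24177609, plus strand: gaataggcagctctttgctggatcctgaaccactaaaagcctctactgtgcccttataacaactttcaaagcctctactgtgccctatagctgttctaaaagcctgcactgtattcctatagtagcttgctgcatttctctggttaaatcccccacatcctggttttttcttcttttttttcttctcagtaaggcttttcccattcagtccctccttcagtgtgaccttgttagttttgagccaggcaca
Col9a1 downstream start, chr1:24194953-24195202, plus strand: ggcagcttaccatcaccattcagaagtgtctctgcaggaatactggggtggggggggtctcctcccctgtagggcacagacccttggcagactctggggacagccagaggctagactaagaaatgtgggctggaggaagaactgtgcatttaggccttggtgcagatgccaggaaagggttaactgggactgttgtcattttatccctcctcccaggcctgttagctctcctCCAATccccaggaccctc
Col4a6, chrX:141474077-141474326, minus strand: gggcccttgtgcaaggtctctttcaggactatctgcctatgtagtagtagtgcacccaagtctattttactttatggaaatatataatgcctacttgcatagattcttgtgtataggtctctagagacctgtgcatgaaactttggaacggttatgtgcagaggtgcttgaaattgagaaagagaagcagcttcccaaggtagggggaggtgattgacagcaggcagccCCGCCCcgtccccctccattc
Col4a5, chrX:141475169-141475418, plus strand: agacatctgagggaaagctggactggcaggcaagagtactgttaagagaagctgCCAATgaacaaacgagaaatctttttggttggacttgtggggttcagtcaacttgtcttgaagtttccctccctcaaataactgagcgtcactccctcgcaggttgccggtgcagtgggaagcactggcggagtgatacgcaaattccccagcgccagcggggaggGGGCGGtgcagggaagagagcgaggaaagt

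The GC box began 21 bases before the Col4a6 start and 30 bases before the Col4a5 start, and the Col4a5 window also held a CCAAT box 196 bases before its start. Of the Col9a1 windows only the downstream one held a match, a CCAAT box 18 bases before its start. Windows were used for 61 of the 84 genes, 67 in all. A GC box stood in 46.3% of them and in 32.7% of all 32851 windows in the table, a CCAAT box in 26.9% against 33.8%, and a TATA box in 7.46% against 12.4%. These matches describe letters only. The array does not report which Col9a1 start was used.

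Among the matrix genes, type IX and type II collagen, the collagens of the vitreous, gave the widest range. Col9a1 (feature 10345101), which encodes a chain of type IX collagen, read 767.9 and 427.9 in EGFP-positive cells, against 1672.7 and 1421.6 in EGFP-negative cells. Both positive arrays lay below both negative arrays, and the second positive array was the lowest. The fractions differed by -1.43 ± 0.29 on the log2 scale (SE, n = 2 per fraction; 95% interval -2.15 to -0.70; limma adjusted p = 0.0904). Its value was -1.85 without EGFP-positive replicate 1 (adjusted p = 0.00687) and -1.01 without EGFP-positive replicate 2. Col9a3, another chain of the same trimer, read 320.9 and 231.7 in EGFP-positive and 428.7 and 281.6 in EGFP-negative cells, so that the fractions overlapped (-0.35 ± 0.26, adjusted p = 0.568). Its difference was -0.05 without EGFP-negative replicate 1 and -0.11 without EGFP-positive replicate 2. Col9a2, the remaining chain, differed by -0.25 ± 0.11 (adjusted p = 0.314) and did not overlap. With all arrays, the differences of the 3 type IX genes ran from -1.43 to -0.25.

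Col2a1, the main fibrillar collagen of vitreous and cartilage, differed more between replicate numbers than between fractions. Its intensities were 636.8 and 345.0 in EGFP-positive cells and 909.8 and 451.7 in EGFP-negative cells, lower in replicate 2 of each fraction. The difference was -0.45 ± 0.42 (adjusted p = 0.673), and it turned to 0.05 without EGFP-negative replicate 1. Between arrays of the same number it was -0.51 for replicate 1 and -0.39 for replicate 2. With the replicate number as a block, limma called Col2a1 lower (adjusted p = 0.0393), though the labels state no pairing. The other fibrillar genes lay between -0.24 and 0.08. Col5a1 and Col11a1, minor chains that start fibrils, had differences of -0.24 ± 0.12 and -0.22 ± 0.11, and neither overlapped between fractions. Of the 11 fibrillar genes, none reached an unadjusted p under 0.05 and 9 had a difference below 0, as did 52.2% of all features. Col1a1 and Col3a1, the fibrillar collagens of connective tissue, differed by -0.06 ± 0.12 and -0.01 ± 0.10. The sign of the Col1a1 difference turned positive without EGFP-negative replicate 1.

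Basement membrane collagens had lower means in EGFP-positive cells for 5 of the 6 type IV genes, and 3 of these reached an unadjusted p under 0.05. Type IV chains are encoded in head-to-head gene pairs. Col4a6 read 183.9 and 148.2 in EGFP-positive cells, against 276.8 and 261.6 in EGFP-negative cells (-0.70 ± 0.14, 95% interval -1.05 to -0.35, adjusted p = 0.0885). Its neighbour Col4a5 read 265.2 and 229.0 in EGFP-positive and 320.1 and 363.1 in EGFP-negative cells (-0.47 ± 0.13, adjusted p = 0.148). Neither gene overlapped between fractions. The starts of this pair lie 1343 bases apart in the RefSeq windows shown above.

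The Col4a1 and Col4a2 pair encodes the chains found in nearly every basement membrane, and its starts lie 21 bases apart. Col4a1 read 370.0 and 320.9 in EGFP-positive cells and 455.6 and 460.2 in EGFP-negative cells (-0.41 ± 0.12, adjusted p = 0.152). Col4a2 read 329.5 and 349.2 in EGFP-positive cells and 387.7 and 445.4 in EGFP-negative cells (-0.29 ± 0.12, adjusted p = 0.267). Again no positive array reached a negative one. The third pair, Col4a3 and Col4a4, encodes chains that take part in the network of the kidney filter. These 2 genes differed by 0.04 ± 0.10 and -0.09 ± 0.10, with 95% intervals of -0.22 to 0.30 and -0.33 to 0.16. Whether the pairs differ from each other was not tested.

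Col18a1, a basement membrane proteoglycan whose end fragment is endostatin, read 297.0 and 251.0 in EGFP-positive cells and 416.6 and 357.2 in EGFP-negative cells (-0.50 ± 0.14, adjusted p = 0.152). Its relative Col15a1 differed by -0.07 ± 0.12. The network collagens Col8a1, Col8a2 and Col10a1 ranged from -0.17 to 0.08. Over the 11 network and basement membrane collagens, 9 had a difference below 0, 4 were lower and 0 higher at an unadjusted p under 0.05, and the median was -0.17. Over all features 52.2% had a difference below 0, and 9.83% were lower and 9.34% higher at that p.

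Collagens of other kinds mostly lay near 0, apart from the type IX genes above and Col23a1, a collagen anchored in the cell membrane. Col23a1 read 391.4 and 365.0 in EGFP-positive cells against 543.2 and 494.0 in EGFP-negative cells. It differed by -0.45 ± 0.11 (95% interval -0.73 to -0.18, adjusted p = 0.121), and the arrays of the fractions did not overlap. Its membrane-spanning relatives Col25a1 and Col13a1 differed by -0.12 ± 0.11 and 0.03 ± 0.10. The 6 type VI genes, which encode beaded filaments around many cells, ranged from -0.15 for Col6a4 to 0.13 for Col6a1, with Col6a5 at -0.12 and Col6a6 at -0.01, and no type VI gene reached an unadjusted p under 0.05. The collagens that decorate fibrils (grouped here with Col26a1, which is of another kind) had a median of 0.05 over 10 genes, and Col22a1 had the highest difference of any collagen at 0.14 ± 0.10.

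**Figure D2:**
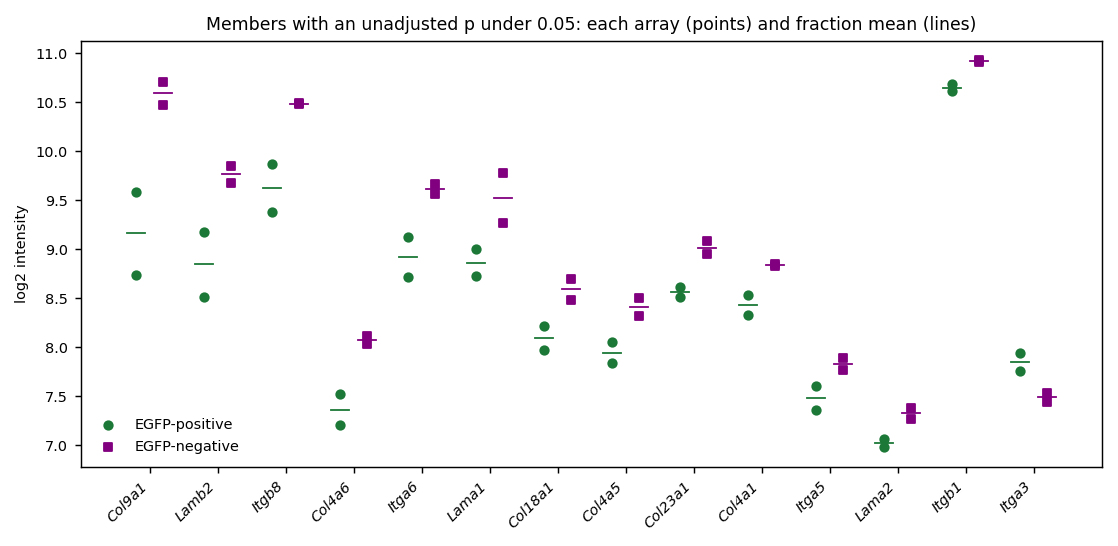
Log2 intensity (y axis) of the 14 members with an unadjusted p under 0.05, with circles for each EGFP-positive array and squares for each EGFP-negative array, and lines at fraction means. In 13 genes both circles lie below both squares, and in Itga3 both lie above.

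Laminins had a lower mean in EGFP-positive cells for 8 of 10 genes, and the larger differences were those of Lamb2 and Lama1. Lamb2 encodes the beta chain of laminins found at synapses and in the retina, and mice without it have abnormal photoreceptor synapses. It read 580.0 and 366.6 in EGFP-positive cells and 925.0 and 818.9 in EGFP-negative cells. The positive arrays were both lower and stood farther apart than the negative ones (-0.92 ± 0.23, 95% interval -1.50 to -0.33, adjusted p = 0.131). Its difference was -0.59 without EGFP-positive replicate 2, and -1.25 without EGFP-positive replicate 1, where it was called (adjusted p = 0.0146). Lama1, the alpha chain of the early embryonic laminin and of the inner limiting membrane of the retina, read 512.9 and 423.4 in EGFP-positive cells and 878.4 and 617.1 in EGFP-negative cells (-0.66 ± 0.20, adjusted p = 0.176). The Lama1 difference ran from -0.91 to -0.41 with 1 array left out, and was -0.41 without EGFP-negative replicate 1. Lama2, the alpha chain of muscle and nerve, differed by -0.31 ± 0.11 (adjusted p = 0.211).

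The remaining laminin chains gave small differences. Lamc1, the gamma chain shared by most laminins, read 471.2 and 445.7 in EGFP-positive and 544.9 and 478.9 in EGFP-negative cells (-0.16 ± 0.11, 95% interval -0.45 to 0.13, adjusted p = 0.570). Lamb1, the alternative to Lamb2 in the trimer, had 212.6 and 199.9 in EGFP-positive and 224.2 and 180.7 in EGFP-negative cells, with fractions that overlapped (0.03 ± 0.14, 95% interval -0.32 to 0.39). Its sign turned without EGFP-positive replicate 1 and without EGFP-negative replicate 2. The other alpha chain genes Lama3, Lama4 and Lama5 had differences from -0.19 to -0.11, and Lamb3 and Lamc3 had -0.02 and 0.07. Over the 10 genes the median was -0.14, and 3 were lower and 0 higher at an unadjusted p under 0.05. Of all features 52.2% had a difference below 0, and 9.83% were lower and 9.34% higher at that p. Feature intensity depends on its probes as well as on RNA, so levels of different chains were not set against each other.

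Among the integrins, the receptors, the most negative differences were those of Itgb5 and Itgb8, beta chains that pair with Itgav, which binds fibronectin, vitronectin and latent growth factor. Itgb8, whose pairing with Itgav releases active transforming growth factor beta, read 934.9 and 668.0 in EGFP-positive cells and 1438.8 and 1426.2 in EGFP-negative cells. The negative arrays were nearly equal, and both positive arrays lay below them (-0.86 ± 0.18, 95% interval -1.31 to -0.41, adjusted p = 0.0948). Itgb5, the beta chain of a vitronectin receptor, read 934.0 and 432.2 in EGFP-positive cells and 1568.6 and 958.3 in EGFP-negative cells. Here the first positive array came close to the second negative one (-0.95 ± 0.42, 95% interval -2.01 to 0.11, adjusted p = 0.312). Without EGFP-positive replicate 1 the difference was -1.50 (adjusted p = 0.0440), and its lowest size with 1 array left out was -0.39. Itgav itself read 677.4 and 515.1 in EGFP-positive and 925.3 and 719.5 in EGFP-negative cells (-0.47 ± 0.19, adjusted p = 0.277). Itgb3 and Itgb6, further partners of Itgav, differed by 0.04 ± 0.10 and -0.20 ± 0.11.

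The laminin receptors did not share a direction. Itga6, a laminin-binding alpha chain, read 558.0 and 422.2 in EGFP-positive cells and 815.5 and 757.6 in EGFP-negative cells (-0.70 ± 0.16, 95% interval -1.10 to -0.29, adjusted p = 0.112). Itga3, which also pairs with Itgb1 to bind laminin, read 246.0 and 216.1 in EGFP-positive cells and 174.2 and 185.5 in EGFP-negative cells. It was the member with the largest positive difference, 0.36 ± 0.12 (95% interval 0.07 to 0.65, adjusted p = 0.189), and its arrays did not overlap. The difference stayed between 0.27 and 0.45 when each array was left out in turn. Itga7 and Itgb4, further laminin-binding chains, differed by 0.06 ± 0.10 and -0.05 ± 0.10.

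Itgb1, the beta chain common to most matrix receptors, read 1646.2 and 1569.9 in EGFP-positive cells and 1921.3 and 1952.2 in EGFP-negative cells. Its difference was small and its arrays did not overlap (-0.27 ± 0.10, 95% interval -0.52 to -0.02, adjusted p = 0.234). Itga5, the fibronectin receptor chain, differed by -0.34 ± 0.13 (adjusted p = 0.238). The 4 collagen-binding alpha chains, Itga1, Itga2, Itga10 and Itga11, lay between -0.10 and 0.06, and all overlapped between fractions. The 9 chains of leukocytes and their relatives ranged from -0.21 for Itga9 to 0.16 for Itgad, with Itgal at -0.19 and Itgb2l at 0.12, and with none at an unadjusted p under 0.05. Of the 4 genes that only share the name, Itgb3bp, a protein of the kinetochore, differed by -0.45 ± 0.19 (adjusted p = 0.294) and the other 3 by -0.11 to 0.07.

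The 9 members with mean log2 intensity above the upper quartile of all features all had lower means in EGFP-positive cells (Itgb1, Itgb8, Col9a1, Itgb5, Itgav, Lamb2, Itga6, Lama1 and Col2a1). Their median difference was -0.70, and 8 had both positive arrays below both negative ones. The band was cut on the mean of both fractions, with the quartile at 9.07. Itga6, Lamb2, Lama1 and Col2a1 had EGFP-positive means of 8.92, 8.85, 8.86 and 8.87, and entered it through their EGFP-negative arrays. The direction in this band is therefore partly set by the cut, and no conclusion is drawn from it. Of all 5609 features above that quartile, 2802 had a difference below 0, and 30.1% did not overlap and were lower in EGFP-positive cells. Of the 45 members between the lower quartile and the median, 24 had a difference below 0, with a median of -0.01. Of the 21 between the median and the upper quartile, 14 were below 0, and of the 9 below the lower quartile, 8. Over all features the shares below 0 in these bands, in the same order, were 52.6%, 54.7% and 51.4%.

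**Figure D3:**
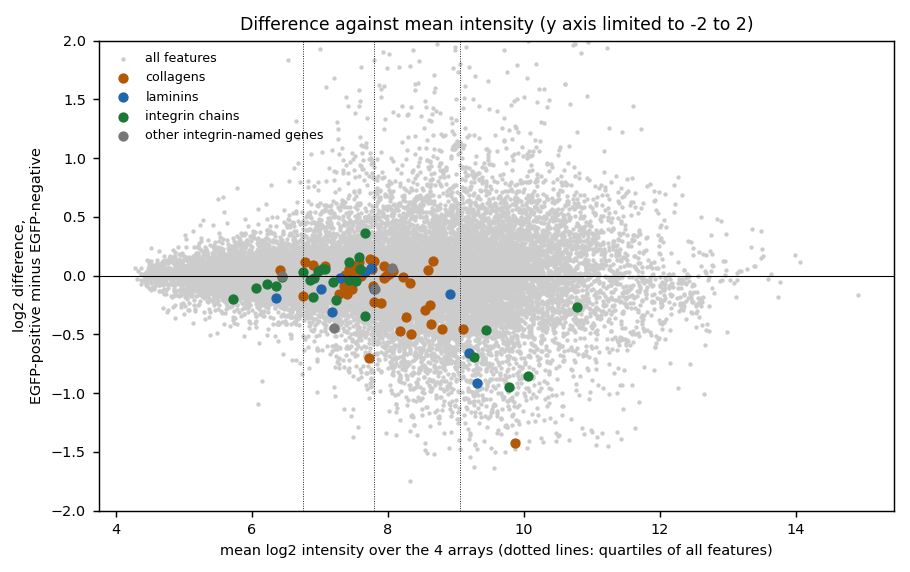
Log2 difference (y axis) against mean log2 intensity over the 4 arrays (x axis) for all features (grey) and the members (coloured by family), with dotted lines at the quartiles of all features and the y axis cut at 2 in either direction. The 9 members right of the last dotted line all lie below 0, where some are placed by their EGFP-negative arrays alone.

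For 76 of the 84 members the 95% interval of the difference lay within 2-fold in either direction, as it did for 91.0% of all features. The 8 others were Col9a1, Col4a6, Col2a1, Itgb5, Itgb8, Itga6, Lamb2 and Lama1, whose intervals reached beyond a 2-fold lower level in EGFP-positive cells. The fractions did not overlap in 31 members with a lower and 8 with a higher mean in EGFP-positive cells, or 36.9% and 9.52%, against 25.3% and 22.3% of all features.

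Replicates differed as much as fractions for many members, at about the share seen over the whole array. In 53 of 84 genes (63.1%) the larger of the 2 replicate gaps exceeded the difference between fractions, against 63.9% of all features. The larger of 2 gaps between single arrays was set against a difference of means, which favours the gap. Replicate 2 was lower than replicate 1 in both fractions for 38 members and higher in both for 14, counts that were not made over all features. The median of replicate 2 minus replicate 1 was -0.01 in EGFP-positive and -0.10 in EGFP-negative cells over the members. Over all features it was 0.02 and -0.04. Col2a1 had a log2 gap, replicate 2 minus replicate 1, of -0.88 in EGFP-positive and -1.01 in EGFP-negative cells, and Itgb5 of -1.11 and -0.71. Col9a1 had a gap of -0.84 in EGFP-positive cells and -0.23 in EGFP-negative cells, and Lamb2 one of -0.66 and -0.18. Of the 13 members with a lower mean at an unadjusted p under 0.05, 12 were lower in the second positive array than in the first, again without a count over all features.

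**Figure D4:**
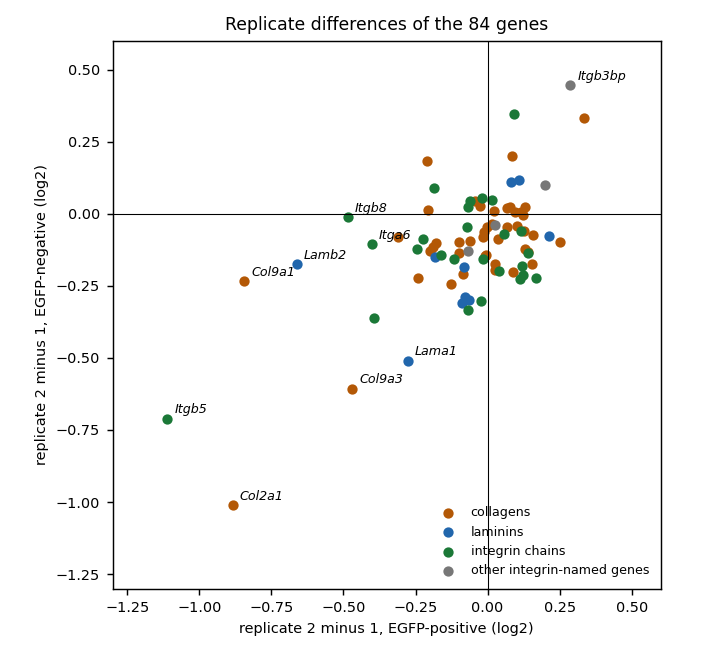
Log2 intensity of replicate 2 minus replicate 1 in EGFP-positive cells (x axis) against the same in EGFP-negative cells (y axis), 1 point per member, coloured by family. Col2a1 (-0.88, -1.01) and Itgb5 (-1.11, -0.71) lie far toward the lower left, and most members lie near 0.

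Other cell types make these matrix proteins, so their markers were read beside the members. None of 17 endothelial genes reached an unadjusted p under 0.05. Of these genes, 14 had a mean intensity below the median of all features, so near-equal values need not mean equal numbers of these cells. Without Kdr, which retinal progenitors also express, their summed intensity was 2193.4 and 2178.0 in EGFP-positive cells and 2277.4 and 2148.8 in EGFP-negative cells. The endothelial adhesion gene Pecam1 read 110.4 to 110.5 on all 4 arrays. Kdr read 3171.2 and 1107.0 in EGFP-positive and 4888.5 and 2883.9 in EGFP-negative cells (adjusted p = 0.403). Of 13 pericyte and mural cell genes, 3 were lower at an unadjusted p under 0.05 and none was called, with sums of 2041.9 and 1941.0 in EGFP-positive and 2567.7 and 2316.7 in EGFP-negative cells. The 3 were Myl9 (-1.04 ± 0.20), Notch3 (-0.59 ± 0.12) and Tagln (-0.35 ± 0.11). A mean intensity below the median of all features was found for 10 of the 13 genes. Of the 13, 10 had a difference below 0 and 3 above, with a median of -0.06 and a highest value of 0.15 for Rgs5, and the receptor gene Pdgfrb stood at -0.06 ± 0.13. Their part in the collagen and laminin differences was not tested.

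The remaining marker lists had none called. None of 11 genes of mesenchyme and fibroblasts reached an unadjusted p under 0.05, with sums of 1331.3 and 1152.2 in EGFP-positive and 1391.8 and 1164.7 in EGFP-negative cells. All 11 had a mean intensity below the median of all features. The 6 astrocyte genes had 1 at an unadjusted p under 0.05, the glutamate transporter gene Slc1a3, also a progenitor gene, at -1.27 ± 0.34 (adjusted p = 0.143). Microglia, lens, pigment and erythroid genes, 48 in all, had none called by limma and 2 at an unadjusted p under 0.05, C1qa and Tyrp1. Below the median intensity of all features were 13 of 14 microglia, 13 of 15 lens, 11 of 11 pigment and 8 of 8 erythroid genes. At such levels the lack of a difference says little about these cells. Of 16 ganglion cell genes, 2 were higher at an unadjusted p under 0.05. Ganglion cell sums were 8775.2 and 14456.5 in EGFP-positive and 7037.1 and 14700.3 in EGFP-negative cells, higher in replicate 2 of each fraction. The marker genes named here were chosen after their values were seen.

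Partners of these proteins were read from 5 lists, 102 genes outside the members. Of these, limma called 1 higher and 0 lower, where 0.820% of all features were called higher and 0.143% lower. At an unadjusted p under 0.05, 5 were higher and 13 lower, or 4.90% and 12.7%, against 9.34% and 9.83% of all features. The called gene was Egflam, which encodes pikachurin, the synaptic ligand that photoreceptors secrete to bind dystroglycan. It read 2021.9 and 1983.8 in EGFP-positive cells and 170.5 and 193.3 in EGFP-negative cells (3.46 ± 0.11, adjusted p = 0.00576). Without either negative array no feature at all was called, and the Egflam difference ran from 3.37 to 3.55 over the fits that leave out 1 array.

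The other 19 partners in the basement membrane list had none called. Sparc, a collagen-binding glycoprotein chosen after its values were seen, read 677.0 and 456.3 in EGFP-positive cells and 1119.0 and 1324.6 in EGFP-negative cells (-1.13 ± 0.21, adjusted p = 0.0850). The list's median was -0.08 over 20 genes. Among 21 other matrix glycoproteins and proteoglycans none was called and the median was -0.03. Fbn2, which encodes a microfibril protein of embryonic tissue, read 674.1 and 653.9 in EGFP-positive cells and 1098.4 and 1103.0 in EGFP-negative cells. Its arrays were close within each fraction and far apart between them (-0.73 ± 0.10, adjusted p = 0.0510), and it was called in some of the alternative fits. Tnr, the matrix protein tenascin-R, read 171.5 and 381.8 in EGFP-positive and 137.4 and 146.7 in EGFP-negative cells (0.85 ± 0.37, adjusted p = 0.306). The Tnr difference was 1.43 without EGFP-positive replicate 1, where it was called (adjusted p = 0.0095), and 0.27 without EGFP-positive replicate 2.

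Of 23 genes for collagen maturation and crosslinking, none was called, 2 were lower and 1 higher at an unadjusted p under 0.05, and 16 had a difference below 0 (median -0.17). The shares of all features were 9.83% lower and 9.34% higher at that p, and 52.2% below 0. Serpinh1, the collagen chaperone of the endoplasmic reticulum, read 316.1 and 251.4 in EGFP-positive cells and 427.9 and 443.7 in EGFP-negative cells (-0.63 ± 0.14, adjusted p = 0.108). Plod2, which hydroxylates collagen lysines, differed by -0.90 ± 0.41 (adjusted p = 0.328), with a replicate gap of -1.14 in EGFP-positive cells. Without EGFP-positive replicate 1 it was called at -1.47 (adjusted p = 0.0344), and without EGFP-positive replicate 2 the difference was -0.32. Serpinh1 was also called without EGFP-positive replicate 1 (-0.79, adjusted p = 0.0353).

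The integrin adhesion list had members on both sides of 0. Of its 26 genes, 11 were above 0 and 15 below (57.7%, against 52.2% of all features). At an unadjusted p under 0.05, 2 were higher and 3 lower, and none was called. Parvb, which encodes beta-parvin, a link from integrins to actin, read 229.2 and 370.2 in EGFP-positive cells and 137.0 and 133.4 in EGFP-negative cells (1.11 ± 0.23, adjusted p = 0.0985). Tln2, which encodes a talin, a protein that activates integrins, read 370.3 and 452.7 in EGFP-positive cells and 276.6 and 266.4 in EGFP-negative cells (0.59 ± 0.13, adjusted p = 0.107). Both were called without EGFP-positive replicate 1, at 1.45 for Parvb (adjusted p = 0.00847) and 0.74 for Tln2 (adjusted p = 0.0424). Parva, the relative of Parvb, had the opposite sign (-0.44 ± 0.16, adjusted p = 0.218). It was named after its values were seen. Of 14 other matrix receptors none was called, and the differences of the syndecan genes Sdc1 and Sdc4 were -0.43 ± 0.15 and -0.42 ± 0.21.

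**Figure D5:**
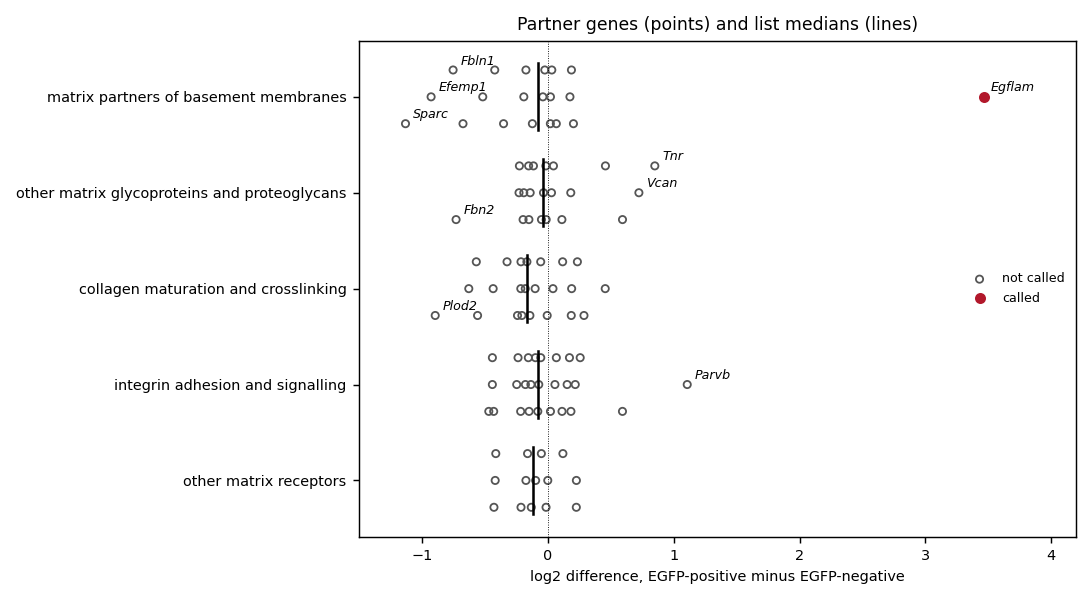
Log2 difference between EGFP-positive and EGFP-negative cells (x axis) for genes of 5 partner lists (rows), with 1 point per gene, spread vertically for legibility, and a line at each list's median. Egflam at 3.46 is the filled, called point; Parvb at 1.11 and Sparc at -1.13 are the farthest of the open points in each direction.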

How the data were processed

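RNA of EGFP-positive and EGFP-negative retinal cells, 100 ng per sample per the labels, was measured on 4 arrays. The deposited values are intensities on a linear scale from 18.9 to 36625.2, with array medians of 218.4 to 222.9. The submitters' processing notes name RMA and the build mm8, with the RMA version and feature filter not given in the sources used here. No coordinates are taken from that build. RMA usually returns log2, and the linear scale was inferred from the range.

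Log2 of the intensity was taken without a pseudocount and modelled on all 22431 features, EGFP-positive minus EGFP-negative, by limma 3.58.1 (lmFit, then eBayes without a trend, under R 4.3.3). P-values are two-sided and adjusted by Benjamini-Hochberg over all of them, and a feature is called at an adjusted p under 0.05. The variance estimate had 5.26 degrees of freedom, 2 from the arrays. The median SE was 0.12, the smallest difference called was 0.75 in size, and precision is limited by having 4 arrays.

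Members, gene lists and tests were chosen with earlier results of these data known. Genes named with values were members with an unadjusted p under 0.05, the 3 largest differences and the 2 highest means of each role group, and, of each partner list, called genes or else the 2 largest differences. Other members are named where a whole group is described.

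Alternatives comprised leaving out each array, a replicate block, 2 further normalisations, 2 variance priors, a filter on dim features, the mean of a gene's features and log2(value + 50). Same-numbered replicates deviated together (correlation 0.48 across features), but 2 pairs do not settle a pairing and the labels state none.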

Additional observations from a re-analysis of the deposited data

How the results depend on the processing

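No member was called higher under any alternative. The count of members called lower, 0 with all arrays, was 0 to 6 over the fits that leave out 1 array and 12 with the replicate block, and 0 under the 7 remaining alternatives. The 12 under the block were Col9a1, Itgb5, Col4a6, Lamb2, Itgb8, Lama1, Itga6, Col18a1, Itgav, Col23a1, Col2a1 and Itgb3bp, when 1377 features were called higher and 1500 lower over the whole array. By the labels same-numbered samples share only a number, though they deviated together across features (correlation 0.48), so this is a hint from the data. Partners called higher were 1 with all arrays and 5 with the block. Partners called lower were 0 with all arrays, 14 with the block, and 1, Fbn2, with quantile normalisation repeated, with log2(value + 50) and with the mean of features per gene. Both counts moved with 1 array left out. A fraction left with 1 array was assumed to vary like the other. With 1 array left out, the median difference ran from -0.119 to -0.0060 over the members and from -0.123 to -0.0061 over the integrin chains. Alternatives for single genes were run for the 55 chosen by the naming rule, and those that changed sign follow. Col6a6 was 0.016 with arrays centred on their median and 0.021 with quantile normalisation repeated, and Lamb3 was 0.0041 with centring. With 1 array left out, Col2a1 ran from -0.957 to 0.053, Col1a1 from -0.163 to 0.037, Col6a5 from -0.242 to 0.0086, Col6a6 from -0.026 to 0.0097, Itga1 from -0.217 to 0.0090 and Itga10 from -0.117 to 0.040. Itga11 ran from -0.014 to 0.125, Itgad from -0.012 to 0.335, Lama5 from -0.261 to 0.028, Lamb1 from -0.121 to 0.190, Lamb3 from -0.128 to 0.087 and Lamc3 from -0.083 to 0.217. The cause was not tested.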
